A study of Mus musculus with 16 samples.

Results

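The prostaglandin and leukotriene genes described here are 10 genes chosen by name: the cyclooxygenases Ptgs1 and Ptgs2, the prostaglandin E2 synthases Ptges, Ptges2 and Ptges3, the prostaglandin D2 synthase Hpgds, the leukotriene genes Alox5, Alox5ap and Ltc4s, and the prostaglandin E2 receptor Ptger4. They are 10 of the 43430 genes in the count table, and all 10 were found in it. Of these, 9 passed the filter on low counts and were tested, and Alox5 did not pass. The study measured messenger RNA in macrophages that were grown from the bone marrow of C57BL/6J mice with macrophage colony-stimulating factor. The cells were moved to MEM culture medium with or without serine and were left untreated or given 100 ng/mL of lipopolysaccharide (LPS, a bacterial cell wall component that activates Toll-like receptor signalling). RNA was isolated 4 h after LPS. This gave 4 groups of 4 libraries: untreated with serine, untreated without serine, LPS with serine and LPS without serine. The labels name no transgene or deletion, and they do not say whether the 4 replicates of a group are separate animals or cultures, so the p-values cover only the spread seen between libraries.

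Eicosanoids are signalling lipids made from arachidonic acid, which phospholipases release from membranes. Cyclooxygenases turn it into prostaglandin H2, from which terminal synthases make prostaglandin E2, prostaglandin D2, prostacyclin or thromboxane. In the other arm, 5-lipoxygenase (Alox5), helped by its activating protein (Alox5ap), makes leukotriene A4, which Lta4h turns into leukotriene B4 and Ltc4s into leukotriene C4. Macrophages are known for making prostaglandin E2 after an inflammatory stimulus, through the inducible cyclooxygenase Ptgs2 and the inducible synthase Ptges.

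The 12 macrophage markers examined, among them Adgre1 and Csf1r, all had counts in each group, and their summed level was 17600 to 30700 CPM (the count scaled to a library size adjusted by the TMM method of edgeR). Mast cells, neutrophils, eosinophils and platelets also make eicosanoids. The mast cell proteases Mcpt4, Tpsab1, Tpsb2 and Cma1 and the receptor Fcer1a were at 0 in each group, and T and NK cell markers summed to at most 0.561 CPM. The 10 mast cell and basophil markers together had medians of 2.61 and 3.8 CPM in untreated cells with and without serine and 24.3 and 17.6 CPM with LPS, where Hdc, the histidine decarboxylase that makes histamine, was at 23.6 ± 3.75 and 17 ± 2.19 CPM (SD, n = 4) against at most 0.717 CPM in any untreated library. Kit, on the same mast cell list, went the other way. It fell with LPS (log2 fold change -1.56 with serine and -1.68 without) and was at no more than 4.54 CPM in any library. The 6 eosinophil markers together had medians of 13 and 9.19 CPM untreated and 51.3 and 41.6 CPM with LPS. Most of that sum was the chemokine receptor Ccr3, at 10.8 ± 2.68 and 7.93 ± 3.14 CPM untreated and 46.9 ± 8.68 and 34.7 ± 11.4 CPM with LPS (SD, n = 4), while Ear6 was at 0 and Epx at no more than 0.101 CPM. The 7 stromal markers together had medians of 14 and 12.6 CPM untreated and 40 and 27.8 CPM with LPS. With serine Pdgfrb rose (log2 fold change 4.26), while Col1a1, Col1a2 and Col3a1 did not pass the test. The 7 dendritic cell markers had medians of 1.99 and 2.56 CPM untreated and 15.7 and 12.4 CPM with LPS. Among them Xcr1 rose (log2 fold change 4.26 with serine and 3.10 without), to at most 11.9 CPM. B and plasma cell markers summed to at most 3.04 CPM. The part of these markers in the LPS results below was not tested. Summed neutrophil markers were 10.9 to 147 CPM over all libraries, with medians of 16.1 and 24.8 CPM in untreated cells with and without serine and 25.5 and 25.1 CPM after LPS. Library totals were 5760734 to 10043362 counts in 15 libraries. Replicate 4 of the untreated cells without serine stood apart with 2871477 counts, 12900 genes detected against 14000 to 16031 in the others, and 23.1% of counts in its top 20 genes against at most 17.3%. In bulk RNA, fewer cells of a type and less RNA per cell cannot be told apart.

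The upstream sequences of Ptgs2 and Ptges are shown because these genes had the largest changes of the 10, both upward after LPS. Each is the 250 bases before the gene's start in RefSeq on GRCm38.p6, 5′ to 3′ on the gene's strand: Ptgs2 at chr1:150099781-150100030 on the plus strand and Ptges at chr2:30903298-30903547 on the minus strand. Capitals mark matches of TTNNGNAA, a loose form of the C/EBP site, on either strand.
Ptgs2: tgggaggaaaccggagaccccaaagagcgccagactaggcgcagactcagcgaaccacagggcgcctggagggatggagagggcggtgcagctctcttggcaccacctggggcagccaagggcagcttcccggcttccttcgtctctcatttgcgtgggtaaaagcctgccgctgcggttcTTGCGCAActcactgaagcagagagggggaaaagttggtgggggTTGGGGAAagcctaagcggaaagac
Ptges: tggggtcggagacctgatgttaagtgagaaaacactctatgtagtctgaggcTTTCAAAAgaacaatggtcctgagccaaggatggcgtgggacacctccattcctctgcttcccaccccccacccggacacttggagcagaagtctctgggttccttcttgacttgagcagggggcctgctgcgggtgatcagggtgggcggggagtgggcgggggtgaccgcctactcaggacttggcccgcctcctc
The Ptgs2 window held 2 matches, at -69 to -62 (TTGCGCAA) and -25 to -18 (TTGGGGAA) from the start, and the Ptges window held 1, at -198 to -191. Of all 32851 RefSeq promoters of that length, 36.8% held such a match, so a match is common. Neither window held the NF-kB consensus, the letters TGACGTCA, TGACG or TATAAA, or the core of the interferon-stimulated response element on either strand, which 7.25%, 1.55%, 17.8%, 12.4% and 2.98% of promoters did (TGACG lies within TGACGTCA). A match is a description of letters, not a binding site. Bases after the annotated start, or more than 250 before it, were not searched, so absence of a motif holds for these windows only. Upstream windows were found for 9 of the 10 genes. Gene spans given below are those of GENCODE on GRCm38, and the span of Ptges there starts upstream of the RefSeq start used for its window.

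The levels of the 10 genes were first set in order within each group, per base of gene length (RPKM, the CPM per kilobase). In untreated cells with serine, Alox5ap was the highest at 330 ± 27.7 RPKM (SD, n = 4), followed by Hpgds at 29.6 ± 2.02, Ptges3 at 12.5 ± 1.04, Ptgs1 at 6.62 ± 1.23 and Ptger4 at 4.69 ± 0.389 RPKM, each above the next in 4 of 4 libraries. Ltc4s (1.95 ± 0.732 RPKM) and Ptges2 (1.9 ± 0.396 RPKM) came next and could not be ordered, with Ltc4s the higher of the pair in 2 of 4 libraries. Ptges (0.947 ± 0.561 RPKM), Ptgs2 (0.33 ± 0.122 RPKM) and Alox5 (0.0621 ± 0.0146 RPKM) were the lowest. The resting pool was thus led by the 5-lipoxygenase activating protein and the prostaglandin D2 synthase, with the inducible prostaglandin E2 genes near the bottom. After LPS with serine, Ptgs2 stood at 313 ± 97.9 RPKM and Alox5ap at 282 ± 35.9 RPKM, with Ptgs2 the higher in 3 of 4 libraries, and without serine in 1 of 4. Ptges followed at 109 ± 14.1 RPKM, then Ptges3 at 21.4 ± 1.65 and Hpgds at 13.4 ± 0.727 RPKM. Ptgs1 had moved down to the eighth place at 2 ± 0.54 RPKM. The FPKM values that the authors deposited use the same counts and gene lengths. Within a library they must give the same order, so they are no separate check of it.

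**Figure D1:**
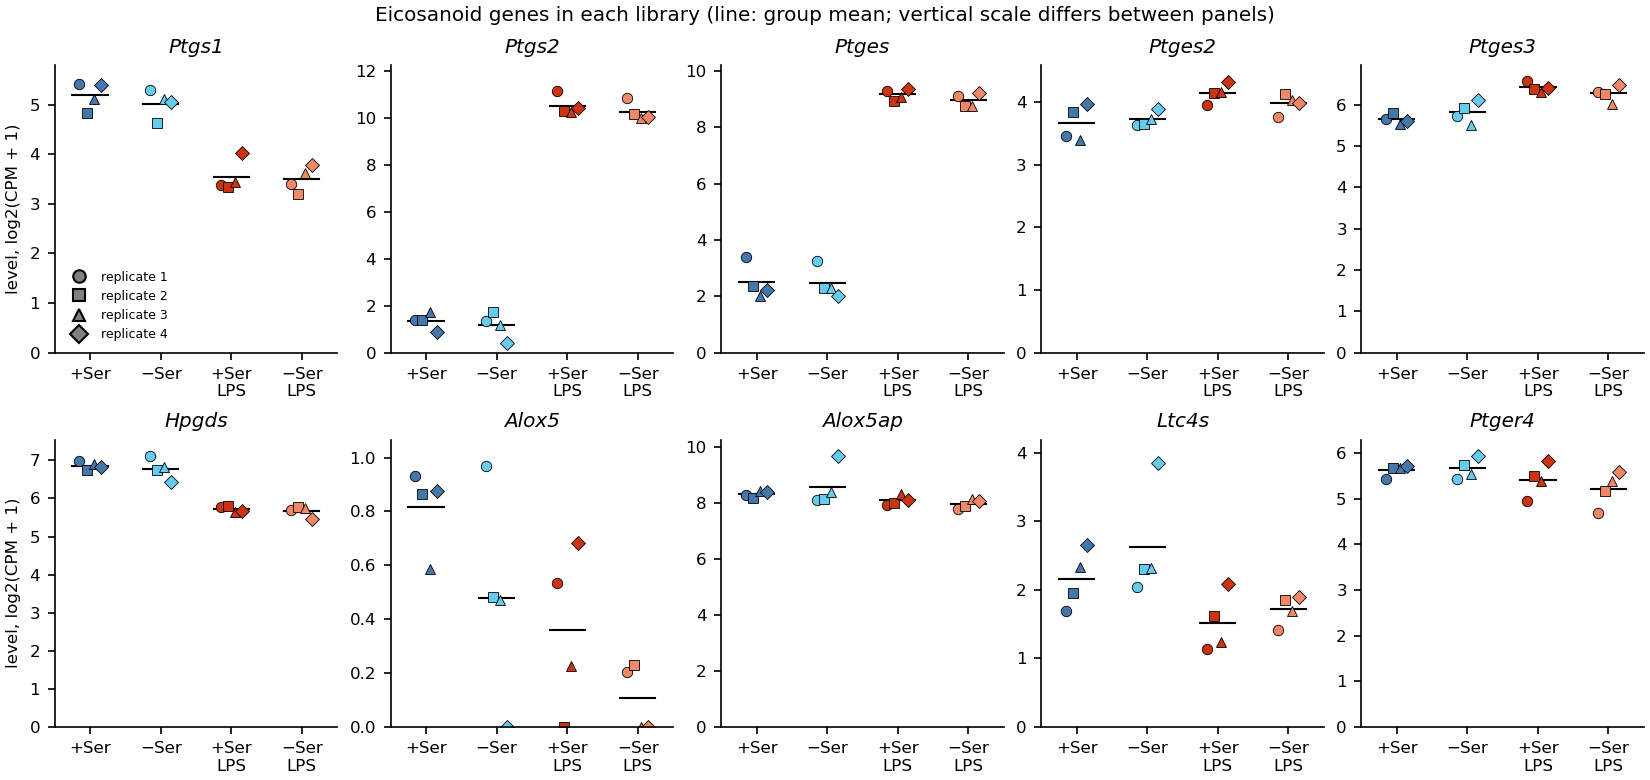
Level of each of the 10 genes, log2(CPM + 1), in the 4 libraries of each group (x axis), with the symbol giving the replicate number and the line the mean. Ptgs2 and Ptges are far higher in the LPS groups, Ptgs1 and Hpgds lower, and replicate 4 of the untreated cells without serine lies above its group for Alox5ap and Ltc4s.

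LPS in medium with serine changed the cyclooxygenases in opposite directions. Ptgs2, the inducible cyclooxygenase (chromosome 1, 150100031 to 150108227, plus strand, GRCm38), was at 1.62, 1.64, 2.26 and 0.835 CPM in the untreated libraries and at 2210, 1260, 1200 and 1360 CPM with LPS. The groups lay far apart, and replicate 1 was the highest of the LPS libraries. The log2 fold change was 9.86 ± 0.39 (SE), with an adjusted p of 7.91e-12 by edgeR's quasi-likelihood test. Ptgs1, the constitutive cyclooxygenase (chromosome 2, 36230426 to 36252272, plus strand), was at 41.6, 27.6, 33.9 and 41.5 CPM untreated and at 9.38, 9.15, 9.82 and 15.3 CPM with LPS. Each LPS library was below each untreated library, replicate 4 being the highest of the LPS group. Ptgs1 fell by 1.73 ± 0.21 on the log2 scale (adjusted p = 2.06e-06, edgeR).

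In medium without serine the same genes were measured against their own untreated group. Ptgs2 was at 1.51, 2.28, 1.28 and 0.337 CPM untreated and at 1840, 1130, 1010 and 1030 CPM with LPS, a log2 fold change of 9.65 ± 0.39 (adjusted p = 1.16e-11, edgeR). Ptgs1 was at 38.6, 23.8, 33.5 and 32.4 CPM untreated and at 9.59, 8.15, 11.4 and 12.7 CPM with LPS, a fall by 1.62 ± 0.21 on the log2 scale (adjusted p = 5.28e-06, edgeR). Neither gene's groups overlapped. Replicate 1 was again the highest LPS library for Ptgs2. Xist, expressed in female cells, had 0 counts in replicate 1 of each group and 351 to 1477 in the remaining 12 libraries, and 4 genes of the Y chromosome had 1184 to 2391 counts there and 0 to 1 in the rest. Replicate 1 of each group thus came from other animals than the remaining replicate numbers. Whether those remaining numbers were separate animals is not stated. Sex and replicate 1 cannot be told apart.

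Ratios within a library do not depend on how libraries are scaled. Of the length-scaled reads of the 2 cyclooxygenases, Ptgs2 held 4.23%, 6.31%, 7.04% and 2.24% in untreated libraries with serine and 99.6%, 99.4%, 99.3% and 99% with LPS. Without serine the share was 4.85 ± 3.59% (SD, n = 4) untreated and 99.2 ± 0.29% with LPS. The cyclooxygenase transcripts were therefore mostly Ptgs1 in each of the 8 untreated libraries and nearly all Ptgs2 in each of the 8 LPS libraries. The untreated share rests on few Ptgs2 reads, 56 in all with serine and 53 without. For replicate 4 without serine the share of plain counts was 1.03%, with an exact (Clopper-Pearson) 95% interval of 0.026% to 5.61%, which covers counting error only.

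The prostaglandin E2 synthases differed in their response. Ptges, the membrane-bound inducible enzyme (chromosome 2, 30889471 to 30929863, minus strand), was at 9.5, 4.1, 3.02 and 3.62 CPM untreated and at 632, 493, 542 and 653 CPM with LPS in medium with serine. The groups did not overlap, and replicate 1 was the highest untreated library. Its log2 fold change was 6.81 ± 0.37 (adjusted p = 1.55e-10, edgeR). Without serine Ptges was at 8.45, 3.86, 3.85 and 3.04 CPM untreated and at 551, 428, 433 and 599 CPM with LPS, a log2 fold change of 6.62 ± 0.37 (adjusted p = 2.52e-10, edgeR). Again no LPS library came near the untreated ones.

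Ptges3, a cytosolic synthase that is also the Hsp90 co-chaperone p23, was at 49.7, 55.1, 45.3 and 48.2 CPM untreated and at 94.5, 83.1, 79.1 and 84.7 CPM with LPS in medium with serine. These groups did not overlap. The log2 fold change was 0.78 ± 0.13 (adjusted p = 0.000101, edgeR), but it was 0.17 ± 0.13 (adjusted p = 0.259) when libraries were scaled by their total count, and over all alternatives the adjusted p ran from 2.78e-08 to 0.259. Without serine Ptges3 was at 51.9, 60.2, 44.8 and 68.8 CPM untreated and at 78.7, 76.5, 64.3 and 88.9 CPM with LPS, and these ranges overlapped. There the log2 fold change was 0.46 ± 0.13 (adjusted p = 0.00827, edgeR) and turned to -0.10 under total-count scaling (adjusted p = 0.496, range over all alternatives 1.44e-05 to 0.496). It also missed the threshold without replicate 1 of every group (0.38, adjusted p = 0.0694) and when only the groups compared were fitted (0.46, adjusted p = 0.0543). Ptges3 has a processed copy, Ptges3-ps, with 269 counts in all 16 libraries, and reads could be split between them.

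Ptges2, the second membrane-associated synthase, was at 10, 13.3, 9.55 and 14.6 CPM untreated and at 14.4, 16.6, 16.9 and 19 CPM with LPS in medium with serine. The lowest LPS library was below the highest untreated one. The log2 fold change was 0.49 ± 0.15 (adjusted p = 0.0119, edgeR), and -0.12 under total-count scaling (adjusted p = 0.464, range over all alternatives 0.00077 to 0.464). Without serine it was 0.28 ± 0.16 (adjusted p = 0.134, edgeR), and -0.29 under total-count scaling (adjusted p = 0.099, range 0.0647 to 0.277). The direction of Ptges2 and, without serine, of Ptges3 therefore depended on the scaling, while Ptges stayed at least 6.02 in each setting tried (log2 fold change without serine 6.02 to 7.09, with serine 6.19 to 7.33). The scaling matters because TMM factors were 1.03 to 1.27 in untreated and 0.781 to 0.861 in LPS libraries. Total-count scaling moved the median log2 fold change of all tested genes by -0.62 with serine and by -0.58 without, and the share of higher among called genes from 49.5% to 20.6% and from 47.7% to 20.4%.

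Of the length-scaled reads of the 3 prostaglandin E2 synthases, Ptges held 6.12 ± 3.4% (SD, n = 4) untreated and 81.7 ± 1.53% with LPS in medium with serine. Without serine it held 5.43 ± 2.96% untreated and 81.1 ± 1.77% with LPS. The leading synthase transcript was Ptges3 before LPS and Ptges after it.

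Hpgds, the haematopoietic prostaglandin D2 synthase (chromosome 6, 65117293 to 65144908, minus strand), moved the other way. It was at 125, 106, 118 and 113 CPM untreated and at 53.7, 55.1, 49.1 and 50.2 CPM with LPS in medium with serine, and at 137, 106, 112 and 85 CPM untreated and 50.7, 54.1, 53.3 and 42.9 CPM with LPS without serine. Neither pair of groups overlapped. Hpgds fell by 1.15 ± 0.13 on the log2 scale with serine (adjusted p = 1.23e-06, edgeR) and fell by 1.14 ± 0.13 without (adjusted p = 1.48e-06). The length-scaled log2 ratio of Ptges to Hpgds went from -5.12 ± 0.676 (SD, n = 4) to 3.02 ± 0.227 with serine and from -5.08 ± 0.399 to 2.86 ± 0.388 without. It was below 0 in each untreated library and above 0 in each LPS library.

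**Figure D2:**
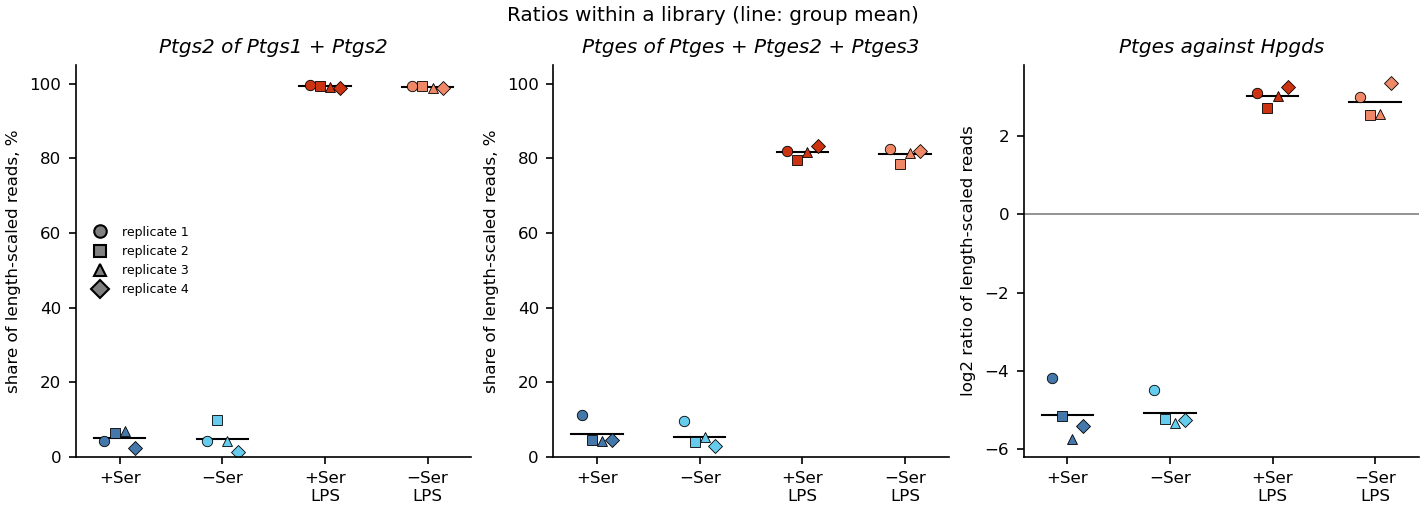
Left and middle, share in percent of length-scaled reads held by Ptgs2 among the cyclooxygenases and by Ptges among the prostaglandin E2 synthases. Right, log2 ratio of Ptges to Hpgds. Points are the 16 libraries by group with the replicate number as symbol and lines are means. The Ptgs2 share is 1.17% to 9.78% untreated and 98.9% to 99.6% with LPS.

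The leukotriene arm was uneven in abundance. Alox5, the 5-lipoxygenase itself (chromosome 6, 116410077 to 116461178, minus strand), had 9, 8, 4 and 6 counts in untreated libraries with serine, 12, 4, 3 and 0 without serine, 3, 0, 1 and 3 with LPS and serine, and 1, 1, 0 and 0 with LPS without serine. It was removed by the filter on low counts and was not tested. Adjusted for library size, the untreated level was 2.59 times that with LPS in medium with serine (95% counting interval 1.1 to 7.05, from 27 against 7 counts) and 6.49 times without serine (1.56 to 57.4, from 19 against 2 counts). These intervals cover counting error only. In the authors' deposited edgeR table, Alox5 had a log2 fold change of -1.32 with LPS in medium with serine (adjusted p = 0.0458). Their table for LPS without serine held no value for it. The deposited tables also differed from the fit here on other members. Ltc4s passed there with LPS and serine (adjusted p = 0.0274, edgeR), and Ptges3 did not pass with LPS without serine (adjusted p = 0.074).

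Alox5ap, which presents arachidonic acid to 5-lipoxygenase (chromosome 5, 149265058 to 149288045, plus strand), was abundant in each library. It was at 316, 288, 350 and 337 CPM untreated and at 247, 254, 325 and 276 CPM with LPS in medium with serine. The ranges overlapped, and the log2 fold change of -0.23 ± 0.27 did not pass the test (adjusted p = 0.508, edgeR). Without serine it was at 276, 285, 335 and 830 CPM untreated and at 221, 238, 284 and 271 CPM with LPS. The log2 fold change there was -0.76 ± 0.27 (adjusted p = 0.0238, edgeR), and it rested on the library at 830 CPM, replicate 4 of the untreated cells. Without that library it was -0.24 (adjusted p = 0.079), and leaving out LPS replicate 1 or 2 also took the adjusted p above the threshold, to 0.0604 and 0.054. With a block for the replicate number, and without that library, the log2 fold change was -0.23 with serine (adjusted p = 0.000666, edgeR) and -0.26 without (adjusted p = 0.000629), and Alox5ap was lower with LPS in 4 of 4 replicate numbers in both media. Over all alternatives its adjusted p ran from 0.000666 to 0.749 with serine and from 9.82e-05 to 0.0968 without.

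Ltc4s, the leukotriene C4 synthase (chromosome 11, 50236469 to 50238616, minus strand), was low. It was at 2.22, 2.87, 4.02 and 5.29 CPM untreated and at 1.19, 2.07, 1.36 and 3.23 CPM with LPS in medium with serine, with overlap. The log2 fold change was -0.88 ± 0.47 (adjusted p = 0.123, edgeR), and -0.89 with the replicate block, where it passed (adjusted p = 0.0163). It was lower with LPS in 4 of 4 replicate numbers. Without serine it was at 3.11, 3.96, 3.98 and 13.5 CPM untreated and at 1.67, 2.6, 2.24 and 2.73 CPM with LPS, without overlap. The log2 fold change of -1.24 ± 0.46 passed the test (adjusted p = 0.0295, edgeR). Replicate 4 of the untreated cells was again the high library, and without it the value was -0.67 (adjusted p = 0.0872). Leaving out LPS replicate 1 or 3 gave an adjusted p of 0.078 or 0.0576. Over all alternatives the adjusted p of Ltc4s ran from 0.00246 to 0.3 with serine and from 0.00116 to 0.0872 without. Ltc4s overlaps Gm26542 on the other strand, which had 39 counts in all libraries against 366 for Ltc4s, and the library kit does not mark strand.

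Replicate 4 of the untreated cells without serine thus held the highest Alox5ap and Ltc4s of all 16 libraries. The same library had the highest summed megakaryocyte and platelet markers, 340 CPM against 71.3 to 160 CPM in the others, nearly all of it Pf4 at 339 CPM. The part of this in the Alox5ap and Ltc4s results was not tested. Without that library the untreated group without serine was at 299 ± 31.8 CPM for Alox5ap and 3.68 ± 0.497 CPM for Ltc4s (SD, n = 3).

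Ptger4, the EP4 receptor for prostaglandin E2 (chromosome 15, 5206661 to 5244187, minus strand), was at 42.5, 49.8, 50.3 and 51.4 CPM untreated and at 29.8, 44.2, 41 and 55.7 CPM with LPS in medium with serine. Without serine it was at 42.2, 52.7, 45.9 and 60.4 CPM untreated and at 25, 35, 41.3 and 47.2 CPM with LPS. Both pairs of groups overlapped, with replicate 1 the lowest in each LPS group. The log2 fold changes were -0.19 ± 0.19 with serine (adjusted p = 0.442, edgeR) and -0.43 ± 0.20 without (adjusted p = 0.0698). With the replicate block the second was -0.46 and passed (adjusted p = 0.00402, edgeR), lower in 4 of 4 replicate numbers. Over all alternatives the adjusted p ran from 0.000779 to 0.857 with serine and from 0.000125 to 0.209 without, the lowest in each medium under total-count scaling. Ptger4 overlaps Ttc33 on the other strand, which had 3525 counts against 5078 and log2 fold changes of -0.54 and -0.62 with LPS, and reads from the overlap cannot be assigned to either.

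Counted together, 4 of the 9 tested genes rose with LPS in medium with serine (Ptgs2, Ptges, Ptges3 and Ptges2, the last below 0 under total-count scaling), against 27.6% of all 11004 genes tested, and 2 fell (Ptgs1 and Hpgds), against 28.2%. In medium without serine 3 rose (Ptgs2, Ptges and Ptges3, the last below 0 under total-count scaling), against 27.1%, and 4 fell (Ptgs1, Hpgds, Alox5ap and Ltc4s), against 29.7%. Total-count scaling left 2 rising (Ptgs2 and Ptges) and 5 falling (Ptgs1, Hpgds, Alox5ap, Ltc4s and Ptger4) in each medium, when 15.1% of all genes rose and 58.2% fell with serine and 15.3% and 59.7% without. The median log2 fold change of the 9 genes was -0.19 with serine and -0.43 without, beside -0.03 and -0.12 over all tested genes. Groups without overlap were seen for 3 rising genes with serine (background 30.7%) and 2 without (25.3%), and for 2 falling genes with serine (30.9%) and 3 without (22.4%). Without replicate 4 of the untreated cells lacking serine, 2 genes rather than 4 fell in that medium, against 32.2% of all genes. With the replicate block, 3 genes fell with serine (background 30.7%) and 5 without (31.6%). The LPS comparisons of the 2 media use different libraries, and their difference was tested as the difference between the withdrawals.

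**Figure D3:**
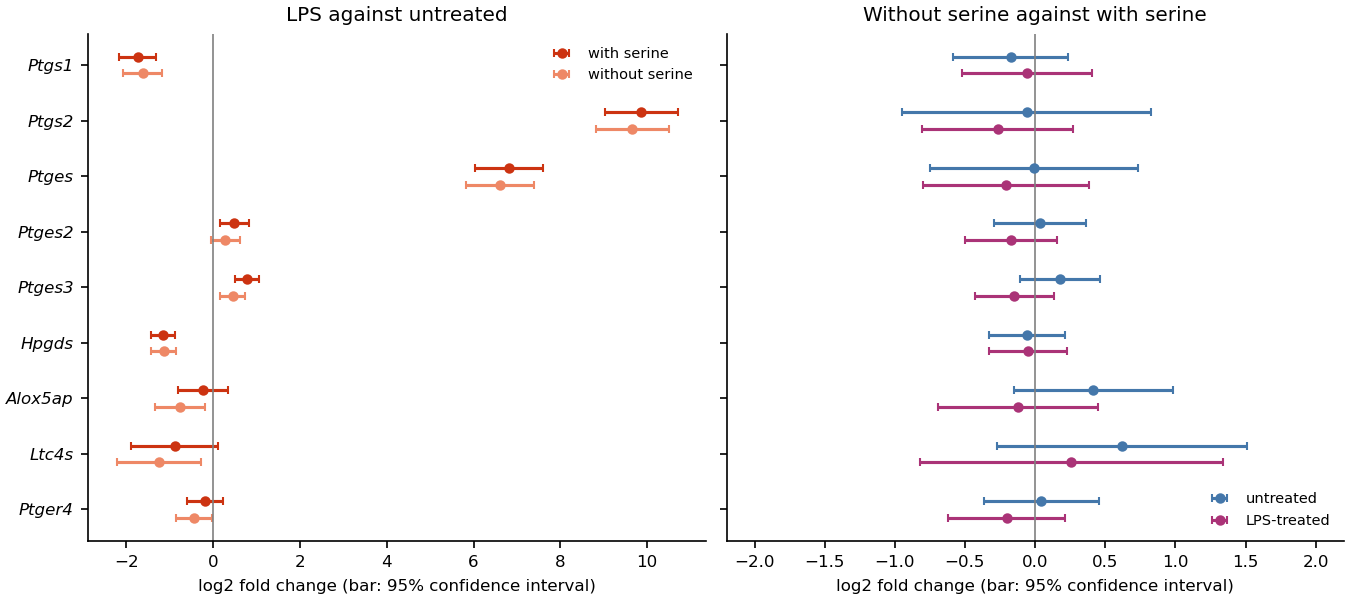
Log2 fold change (x axis) of the 9 tested genes with LPS in each medium (left) and without against with serine in each LPS state (right), with 95% confidence intervals from edgeR. On the left Ptgs2 lies near 9.86 and 9.65 and Ptges near 6.81 and 6.62. Ptges2 and, without serine, Ptges3 lie above 0 here and below it under total-count scaling. On the right each interval includes 0.

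Serine withdrawal was then compared in untreated cells. None of the 9 tested genes passed, and 0 of them had an unadjusted p under 0.05. The background was 0% in both directions (edgeR), with 548 genes at an unadjusted p under 0.05, and DESeq2 called 12 genes higher and 1 lower, none of them among the 10. The 95% interval of each of the 9 log2 differences included 0. For Ptgs2 the difference was -0.06 ± 0.42 (95% interval -0.95 to 0.83), and for Ptgs1 -0.17 ± 0.19 (-0.58 to 0.24), lower in 4 of 4 replicate numbers. Those of Alox5ap (0.42 ± 0.27) and Ltc4s (0.62 ± 0.42) were the largest. Without replicate 4 of the cells lacking serine the Alox5ap value turned to -0.11 and that of Ltc4s was 0.05 (adjusted p = 1, edgeR). Ptges was at -0.01 ± 0.35 and its sign changed in several settings.

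In LPS-treated cells, withdrawal of serine left 0 of the 9 genes past the threshold and 0 at an unadjusted p under 0.05. Over all genes 0.0545% were called higher and 0.00909% lower (edgeR), 6 genes and 1 gene, with 676 at an unadjusted p under 0.05, and DESeq2 called 76 and 18. Ptgs2 was lower without serine in 4 of 4 replicate numbers, by log2 differences of -0.26, -0.15, -0.26 and -0.40. Replicate 1 had the highest Ptgs2 level in both media, so the groups overlapped although each same-numbered library was lower. The fitted difference was -0.27 ± 0.26 (95% interval -0.81 to 0.27, adjusted p = 1, edgeR). With the replicate block it was -0.27 ± 0.19 (adjusted p = 0.817), and with the block and without replicate 4 of the untreated cells lacking serine -0.27 ± 0.12 (adjusted p = 0.203, the lowest of all alternatives). Over the 8 fits that leave out 1 library the difference ran from -0.52 to -0.02, the latter without LPS replicate 1 of the cells with serine.

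Ptges was also lower in 4 of 4 replicate numbers, by -0.20, -0.21, -0.32 and -0.12, with a fitted difference of -0.21 ± 0.28 (95% interval -0.80 to 0.38, adjusted p = 1, edgeR). The same held for Ptges2 (-0.17 ± 0.16) and Alox5ap (-0.12 ± 0.27), each lower in 4 of 4, while Ptges3 (-0.15 ± 0.13), Ptger4 (-0.20 ± 0.20) and Hpgds (-0.05 ± 0.13) were lower in 3 of 4. Ltc4s was higher in 3 of 4 (0.26 ± 0.51) and Ptgs1 was split (-0.06 ± 0.22). The share of all genes lower in 4 of 4 replicate numbers was not computed. These tallies, like the others by replicate number given here, therefore have no background to be read against. No member passed with the block either, when 0.663% of all genes were called higher and 0.227% lower with LPS and 0.0818% higher and 0% lower without it. A halving of Ptgs2 or Ptges, a log2 difference of -1, lay outside both 95% intervals in LPS-treated cells. Those intervals come from the fit without the replicate block, which did not resolve differences within them. With the block the SE was smaller, 0.19 for Ptgs2 and 0.20 for Ptges, and neither gene passed.

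The difference between the withdrawals, which is also the difference between the LPS responses of the 2 media, called 0 of the 9 genes and 0% of all genes in either direction, with 0 of 9 and 253 of all genes at an unadjusted p under 0.05 (edgeR), and DESeq2 called 1 gene. It was -0.21 ± 0.49 for Ptgs2 (95% interval -1.25 to 0.84), -0.20 ± 0.45 for Ptges (-1.14 to 0.75) and 0.11 ± 0.29 for Ptgs1 (-0.50 to 0.73). For Ptges3 it was -0.33 ± 0.19 (-0.73 to 0.08) and for Alox5ap -0.54 ± 0.38, of which -0.03 was left with the block and without replicate 4 of the untreated cells lacking serine. So Ptges2, Alox5ap and Ltc4s, which passed the LPS test in 1 medium and not in the other, were not shown to respond differently.

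**Figure D4:**
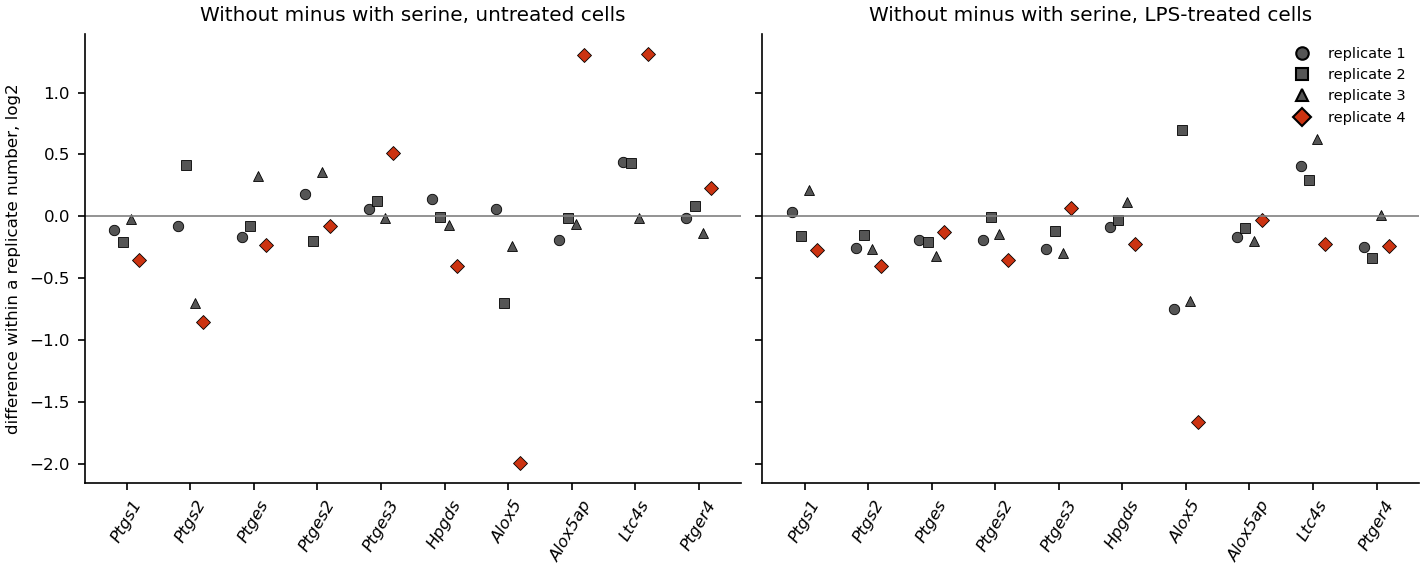
Log2 difference without minus with serine (y axis) between libraries of the same replicate number, for each of the 10 genes, in untreated (left) and LPS-treated cells (right), with replicate 4 in red. With LPS the 4 points of Ptgs2 lie at -0.40 to -0.15 and those of Ptges at -0.32 to -0.12. Untreated, replicate 4 is at 1.3 for Alox5ap. Alox5 rests on 0 to 12 counts a library.

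The other genes of the pathway were taken from a list of 58 that covers release of arachidonic acid, its return to phospholipids, other synthases, breakdown and receptors, of which 39 were tested. With LPS in medium with serine 10 rose and 14 fell (median log2 fold change 0.02), and without serine 11 rose and 15 fell (median -0.10), beside the backgrounds above. Total-count scaling gave 8 higher and 21 lower, and 8 and 22, beside the 15.1% and 58.2%, and 15.3% and 59.7%, of all genes at that scaling. Upstream of the cyclooxygenases, Pla2g4a, the cytosolic phospholipase A2 that releases arachidonic acid, went from 6.41 ± 0.51 to 110 ± 17 CPM with serine (log2 fold change 4.09 ± 0.15, adjusted p = 2.85e-12, edgeR) and from 6.58 ± 0.772 to 130 ± 15.8 CPM without (4.28 ± 0.15). The diacylglycerol lipases Dagla (-2.96 ± 0.22) and Daglb (-2.17 ± 0.16) and the lysosomal phospholipase Pla2g15 (-2.22 ± 0.19) fell with serine and also without (-2.58, -1.75 and -2.34). Pla2g6, a calcium-independent phospholipase, fell by 1.74 ± 0.31 on the log2 scale with serine (adjusted p = 0.000169, edgeR) and fell by 1.84 ± 0.32 without. Of the 8 release genes tested, 1 rose and 4 fell with serine, against 27.6% and 28.2% of all genes, and 2 rose and 4 fell without, against 27.1% and 29.7%. Plaa, called only without serine, was at 0.37 there (adjusted p = 0.0175, edgeR) and at -0.21 under total-count scaling.

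Among the genes that return arachidonic acid to phospholipids, Acsl1, a long-chain acyl-CoA synthetase, rose from 158 ± 19 to 1790 ± 197 CPM with serine (log2 fold change 3.50 ± 0.16) and by 3.45 ± 0.16 without. Of the 5 other prostanoid synthases tested none rose and 3 fell in each medium, the largest fall being that of the carbonyl reductase Cbr3 (-1.90 ± 0.32 and -2.02 ± 0.32). Tbxas1, the thromboxane synthase, went from 120 ± 9.5 to 77.3 ± 10.9 CPM with serine. Hpgd, the dehydrogenase that inactivates prostaglandins, fell from 17.9 ± 1.1 to 3.87 ± 1.18 CPM with serine (-2.19 ± 0.29, adjusted p = 7.51e-06, edgeR), and Abcc4, a transporter that exports prostaglandins, rose by 1.97 ± 0.23 in both media. Of the receptors, Fpr2, which binds lipoxin A4 and formyl peptides, rose by 6.87 ± 0.39 with serine and 6.82 ± 0.40 without, and the cysteinyl leukotriene receptor Cysltr2 by 3.18 ± 0.39 and 3.07 ± 0.40. All 3 tested leukotriene and lipoxin receptors rose in each medium, against 27.6% and 27.1% of all genes, and 2 of the 3 tested prostanoid receptors fell, against 28.2% and 29.7%. Among them the rise of Cysltr1, another cysteinyl leukotriene receptor, was 1.09 with serine and 0.83 without, and it was not called under total-count scaling (0.47, adjusted p = 0.0603, and 0.25, adjusted p = 0.32, edgeR). Apart from Plaa, the LPS directions of the genes named so far from this list held under total-count scaling. That of Dpep2, a dipeptidase on the list, did not, with 0.53 in the main fit and -0.08 at that scaling with serine.

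**Figure D5:**
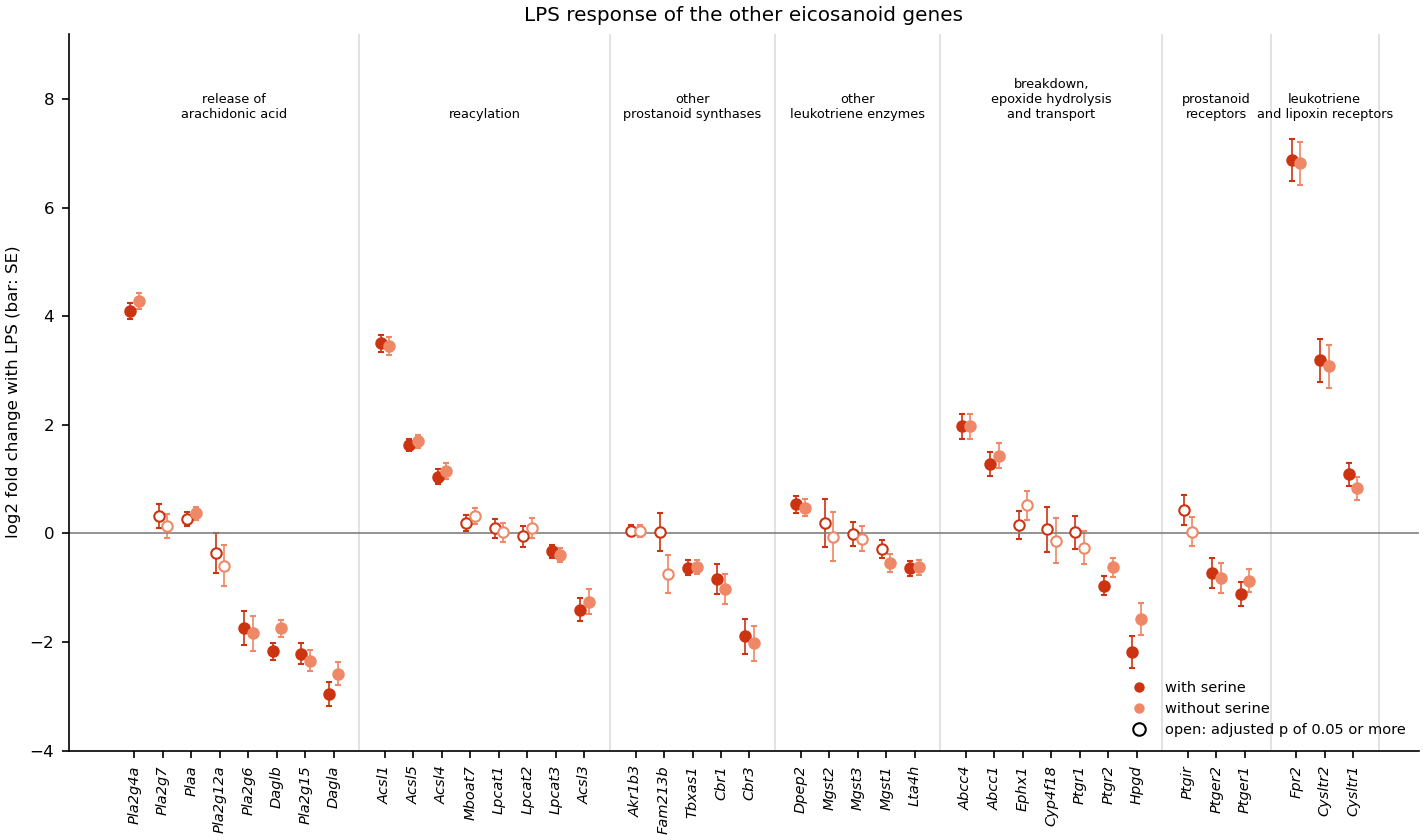
Log2 fold change with LPS (y axis, bars SE) of the 39 tested genes of the wider list by class, with filled points at an adjusted p under 0.05. Fpr2, Pla2g4a, Acsl1 and Cysltr2 are the highest and Dagla, Pla2g15, Hpgd and Daglb among the lowest with serine. Under total-count scaling all points with serine shift down, the median of all genes by -0.62, so small values such as that of Dpep2 change sign.

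Serine withdrawal and the difference between the withdrawals called 0 of the 39 genes. Pla2g4a was at 0.06 ± 0.15 in untreated and 0.24 ± 0.13 in LPS-treated cells (log2 difference, adjusted p = 0.939 and 0.881, edgeR). Lta4h was at -0.08 ± 0.14 and -0.06 ± 0.14, Tbxas1 at 0.03 ± 0.13 and 0.05 ± 0.14, Ptger2 at 0.20 ± 0.27 and 0.12 ± 0.28, Ptgir at 0.13 ± 0.27 and -0.27 ± 0.27, and Hpgd at -0.30 ± 0.26 and 0.31 ± 0.32. Of the 19 genes that were not tested, Ptgds, Alox8, Alox12e and Ptgdr had 0 counts in all libraries and the rest 1 to 120 counts in all.

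Likeness of pattern was measured over the 16 libraries as the root mean square difference of log2 CPM, each gene centred on its mean. Nearest to Ptgs2 were Il1a (0.424), Ch25h (0.645) and Gbp2b (0.778), nearest to Ptges were Rasgrp1 (0.231), Mx2 (0.343) and Lad1 (0.347), and nearest to Ptgs1 were Tmem51 (0.213), Tle1 (0.228) and Med22 (0.229). The measure is a description over libraries that share the LPS contrast. Il1a, the interleukin-1 alpha gene, had log2 fold changes of 9.78 ± 0.39 with serine and 9.43 ± 0.40 without, beside 9.86 and 9.65 for Ptgs2.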

How the data were processed

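The authors deposited whole-number read counts per Ensembl gene for 16 libraries, with gene lengths, FPKM values and tables of log2 fold changes and adjusted p-values. The submitters' processing notes name STAR, HTSeq, SAMtools, Trimmomatic 0.33 and edgeR, and mm10 as the genome build, without saying what each did. The deposited FPKM equalled the count divided by total count and length, so within a library they order the genes as the RPKM do. Another 24 per-sample columns were not used. Symbols matched 42462 of 43430 IDs.

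The counts were tested with edgeR 4.0.16 under R 4.3.3: filterByExpr (11004 genes), TMM, and a robust quasi-likelihood fit of 4 group means to 16 libraries, with two-sided tests, Benjamini-Hochberg adjustment over all tested genes and a threshold of 0.05. The common dispersion was 0.0438 (BCV 20.9%). Log2 levels in pairs and likeness used a prior count of 2. DESeq2 1.42.0 was an alternative. The script was tested on simulated data. No 2 libraries were copies (lowest chi-square per degree of freedom 2.04 over 120 pairs).

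Replicate numbers, from the titles, paired the samples: same-numbered deviations correlated at 0.125 to 0.66 over the 4 comparisons of 2 groups, above the criterion of 0.1. Differently numbered libraries correlated at -0.373 to 0.141. In each comparison the lowest same-numbered value was above the highest of the others. The fit without a block stayed the one reported, as the submitters state no block. Its SEs and intervals therefore include the differences between replicate numbers. With the block, Ltc4s with LPS in medium with serine (adjusted p = 0.0163, edgeR) and Ptger4 with LPS without serine (adjusted p = 0.00402) also passed.

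The members, lists and motifs were chosen with earlier results of these data known. Named were all 10 members, up to 5 genes of the wider list each way with the largest change past the threshold, 6 fixed genes where fewer than 3 passed, and the 3 genes most like Ptgs2, Ptges and Ptgs1. Tbxas1 levels with LPS, Il1a, Dpep2, Plaa, Kit and Xcr1 were named after their values were seen.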

Additional observations from a re-analysis of the deposited data

Results flagged for a closer look

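Over 40 groups of 4 libraries (10 genes, 4 groups), 7 had a library whose gap to its nearest neighbour was large for the group's range. Chance marks about 1 in 20 groups, and the same-numbered libraries are not independent. Ptgs2 was at 2210 CPM in replicate 1 of LPS with serine, against 1200 to 1360 in the other 3, and at 1840 CPM in replicate 1 of LPS without serine, against 1010 to 1130. Ptges was at 9.5 CPM in replicate 1 of the untreated cells with serine, against 3.02 to 4.1, and at 8.45 CPM in replicate 1 without serine, against 3.04 to 3.86. Replicate 1 is the only number without Xist counts. Leaving that number out of every group changed no call of Ptgs2 or Ptges. Ptgs1 was at 15.3 CPM in replicate 4 of LPS with serine, against 9.15 to 9.82.

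In replicate 4 of the untreated cells without serine, Alox5ap was at 830 CPM, against 276 to 335, and Ltc4s at 13.5 CPM, against 3.11 to 3.98. This library had the fewest counts of the 16, 2871477. The share of this in both values was not tested.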

How the results depend on the processing

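In the LPS comparisons Ptgs2, Ptges, Ptgs1 and Hpgds kept direction and call in each of the 16 alternatives run for each medium. Total-count scaling gave 2 members higher and 5 lower with serine, 1666 of all genes higher and 6407 lower with serine and 1686 and 6566 without, and 0 and 0 for withdrawal with LPS. It turned Ptges2 to -0.12 and -0.29 with LPS with and without serine and to -0.025 in untreated withdrawal, Ptges3 to -0.10 with LPS without serine, and Ptger4 to -0.028 in untreated withdrawal.

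The replicate block changed the calls of Ltc4s (LPS with serine, -0.89) and Ptger4 (LPS without serine, -0.46) and no other member's call. Over all genes it called 9 higher in untreated withdrawal, and 73 higher and 25 lower in withdrawal with LPS. With the replicate block and without replicate 4 of the untreated cells lacking serine, 4 members fell with LPS in medium with serine, where 37.5% of all genes fell. All-gene calls were then 70 higher and 9 lower in untreated withdrawal, 556 and 370 in withdrawal with LPS, and 4 and 4 for the difference. Untreated withdrawal became 0.0094 for Hpgds, 0.13 for Ptges and -0.095 for Alox5ap, and the difference -0.060 for Hpgds.

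Without the filter on low counts, 2 genes were higher in untreated withdrawal and 3 with LPS. Without replicate 1 of every group, withdrawal with LPS called 0 and 0 genes, and untreated withdrawal was -0.015 for Ptges2 and 0.028 for Ptges. Fitting only the groups compared left 2 members lower with LPS without serine, and called 23 genes higher and 11 lower in withdrawal with LPS. DESeq2 called 12 and 1, 76 and 18, and 1 gene higher in the withdrawals and their difference.

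Leaving out 1 library gave 2 to 5 members lower with LPS without serine, and 0 to 6 genes higher and 0 to 1 lower in withdrawal with LPS. Values ran in untreated withdrawal from -0.051 to 0.15 for Ptges2, -0.18 to 0.042 for Hpgds, -0.37 to 0.13 for Ptgs2, -0.046 to 0.12 for Ptger4, -0.48 to 0.50 for Ptges and -0.11 to 0.58 for Alox5ap. With LPS they ran from -0.088 to 0.017 for Hpgds and -0.16 to 0.14 for Ptgs1. The difference ran from -0.60 to 0.21 for Ltc4s, -0.092 to 0.13 for Hpgds, -0.46 to 0.10 for Ptgs2, -0.0098 to 0.31 for Ptgs1 and -0.71 to 0.27 for Ptges. None of these withdrawal values passed in any setting. Apart from the settings' own construction the causes were not tested. Depth limits Alox5, Ptgs2 in untreated cells (56 and 53 counts) and Ltc4s with LPS (44 and 52 counts).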

Other observations

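The antisense transcripts annotated beside Ptgs2 were examined after the values of Ptgs2 were seen. Ptgs2os2 (chromosome 1, 150159043 to 150164948, minus strand, GRCm38) had 2 counts in the 4 untreated libraries with serine and 190 in the 4 with LPS, a ratio of 141 adjusted for library size (95% counting interval 38.6 to 1180). Without serine it had 2 and 211 counts, a ratio of 155 (42.2 to 1280). The log2 fold changes were 6.78 ± 0.47 (adjusted p = 2.66e-09, edgeR) and 6.90 ± 0.47 (adjusted p = 2.72e-09). Ptgs2os, which starts 68 bases from the start of Ptgs2 on the other strand, had 0 counts in the 8 untreated libraries and 6 and 9 counts with LPS with and without serine. Both lie outside the annotated span of Ptgs2. The kit does not mark strand, so the reads in these spans cannot be assigned to a strand. Any Ptgs2 transcripts extended as far as the Ptgs2os2 span could not be told apart from antisense ones.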
